A study of Mus musculus with 16 samples.

Results

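Cell division was followed through 36 genes in RNA from mouse terminal ileum, 16 whose products act in DNA replication during S phase and 20 whose products act in mitosis. They were chosen by name from the 23299 genes of the table, with earlier results of these data known. All 36 passed the filter on low values (an RPKM of 1 or more in 2 or more of the libraries), which left 19042 genes for testing. The mice were C57BL/6, either wild type (WT, Tas1r3+/+ littermates) or homozygous for a germline knockout of Tas1r3 (KO, Tas1r3-/-), which lacks the shared subunit of the sweet and umami taste receptors in every tissue. They were a few weeks old at the start and were fed a normal diet with plain water (ND) or a Western diet (WD), which combined pellets of 60% fat with a drink of 30% sucrose, for 10 weeks. The 4 groups are called WT-ND, KO-ND, WT-WD and KO-WD, and by the labels each holds 2 males and 2 females. RNA was taken from whole ileum, so a difference in the number of dividing cells cannot be told apart from a difference in RNA per cell. Dividing cells of the crypt cannot be told apart from dividing cells elsewhere in the tissue either.

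The lining of the small intestine is among the fastest renewing tissues of the body. Stem cells at the crypt base, between the Paneth cells, give rise to transit-amplifying cells that divide a few times, leave the cell cycle and move up the villus as absorptive or secretory cells. S phase genes are switched on by E2F factors once the retinoblastoma family of repressors is inactivated. Their products license origins of replication (Cdc6, Cdt1 and the helicase subunits Mcm2 to Mcm7), hold the polymerase on DNA (Pcna) and supply nucleotides (Rrm1, Rrm2, Tyms). Mitosis genes follow later in the cycle under B-Myb and FoxM1, through the cell cycle genes homology region (CHR) of their promoters, and encode the kinases, motors and ubiquitin machinery of chromosome segregation.

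Not every column could be used. Both female columns of KO-ND were weighted means of the male columns in all but 17 or 18 of 59258 transcripts, with none of the exceptions in these genes, so both were left out. The female columns of KO-WD were related to each other and were averaged to 1 library, called the KO-WD female, which may hold more than 1 mouse. This left 13 libraries: 4 WT-ND, 2 KO-ND (both male), 4 WT-WD and 3 KO-WD (2 male, 1 female). Tas1r3 was at 1.56 to 6.65 scaled RPKM in the WT libraries and at 0.00532 or less in every KO library. Depth, inferred from the step that 1 read makes in the values, was about 7341830 to 12780800 reads, and the 36 genes had about 11.4 (Bub1) to 2140 (Mki67) reads in a library.

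The windows around the transcription starts separate the S phase from the mitosis genes by sequence, which their choice did not use. RefSeq windows on GRCm38.p6, from 250 bases before to 50 bases after the annotated start, were matched for 29 of the 36 genes. They were searched on both strands for the CHR (TTTGAA), for the CCAAT box bound by NF-Y (CCAAT) and for 4 spellings of the E2F site (TTTCCCGC, TTTCGCGC, TTTGCCGC and TTTGGCGC). The CHR was present in 11 of 16 mitosis genes and in 1 of 13 S phase genes (Mcm2), against 20.2% of the 27025 genes with a window. An E2F spelling was present in 7 of 13 S phase genes and in 1 of 16 mitosis genes (Cdk1), against 2.61% of all genes. CCAAT was present in 14 of 16 mitosis genes and 9 of 13 S phase genes, against 41.1% of all genes. Outside the 36, the CHR was in 28 of 37 other mitosis genes and 5 of 25 other S phase genes, and an E2F spelling in 3 and 8 of them. These are matches of letters, and no binding was measured.

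The windows of 6 genes are shown because the comparisons return to them, 4 from the mitosis list and 2 from the S phase list. They are Top2a (chr11:99024140-99024439, minus strand), Ube2c (chr2:164769679-164769978, plus strand), Aurka (chr2:172370521-172370820, minus strand), Cdk1 (chr10:69352863-69353162, minus strand), Mcm3 (chr1:20820263-20820562, minus strand) and Mcm6 (chr1:128359656-128359955, minus strand). Each is written 5′ to 3′ along the strand of the gene, and capitals mark every match to the 3 motifs on either strand, which run into each other in Ube2c (a CCAAT with its reverse complement) and Mcm6 (an E2F spelling with the reverse complement of another).
Top2a: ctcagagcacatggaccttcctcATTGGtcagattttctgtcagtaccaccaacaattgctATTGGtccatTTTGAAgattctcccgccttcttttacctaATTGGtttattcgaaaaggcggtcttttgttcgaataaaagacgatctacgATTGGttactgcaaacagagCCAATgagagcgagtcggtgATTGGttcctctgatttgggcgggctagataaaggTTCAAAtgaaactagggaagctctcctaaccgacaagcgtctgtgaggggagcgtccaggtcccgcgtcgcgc
Ube2c: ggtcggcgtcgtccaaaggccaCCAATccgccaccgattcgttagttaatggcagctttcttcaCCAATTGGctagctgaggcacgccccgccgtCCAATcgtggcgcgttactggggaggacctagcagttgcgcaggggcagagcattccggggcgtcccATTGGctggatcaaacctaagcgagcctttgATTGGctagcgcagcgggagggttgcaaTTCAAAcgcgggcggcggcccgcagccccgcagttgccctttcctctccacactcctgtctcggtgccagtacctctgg
Aurka: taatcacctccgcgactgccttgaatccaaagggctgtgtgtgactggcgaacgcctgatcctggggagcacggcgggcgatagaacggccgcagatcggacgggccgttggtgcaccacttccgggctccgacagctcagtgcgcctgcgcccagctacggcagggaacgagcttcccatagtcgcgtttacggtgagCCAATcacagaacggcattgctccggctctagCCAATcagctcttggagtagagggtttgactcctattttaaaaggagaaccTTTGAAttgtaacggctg
Cdk1: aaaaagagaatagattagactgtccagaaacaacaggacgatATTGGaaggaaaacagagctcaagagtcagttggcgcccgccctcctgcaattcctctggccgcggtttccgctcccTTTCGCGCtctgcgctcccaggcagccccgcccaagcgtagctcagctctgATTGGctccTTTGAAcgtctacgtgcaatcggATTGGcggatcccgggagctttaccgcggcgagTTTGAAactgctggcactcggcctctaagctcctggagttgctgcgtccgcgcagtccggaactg
Mcm3: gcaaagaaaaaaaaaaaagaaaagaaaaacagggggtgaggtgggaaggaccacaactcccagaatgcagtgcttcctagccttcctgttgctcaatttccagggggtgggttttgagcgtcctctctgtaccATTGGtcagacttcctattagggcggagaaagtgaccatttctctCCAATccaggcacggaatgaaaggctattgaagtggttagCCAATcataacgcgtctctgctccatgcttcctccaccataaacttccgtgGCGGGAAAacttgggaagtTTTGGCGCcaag
Mcm6: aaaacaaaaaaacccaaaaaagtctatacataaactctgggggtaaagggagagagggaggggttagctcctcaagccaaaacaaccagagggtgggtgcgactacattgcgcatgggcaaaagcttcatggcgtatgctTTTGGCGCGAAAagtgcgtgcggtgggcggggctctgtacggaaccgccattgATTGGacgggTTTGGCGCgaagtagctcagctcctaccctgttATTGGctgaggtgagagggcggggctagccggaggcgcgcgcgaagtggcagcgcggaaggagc

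Top2a carries 6 CCAAT boxes and 2 CHR matches, at -179 among the boxes and at -23 downstream of them all. Ube2c has a single CHR downstream of 6 CCAAT boxes. Aurka has its only CHR inside the transcribed region, while Cdk1 holds both an E2F spelling and 2 CHR matches. In Mcm3 both E2F matches lie downstream of the start, and in Mcm6 the 3 matches lie upstream of it.

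**Figure D1:**
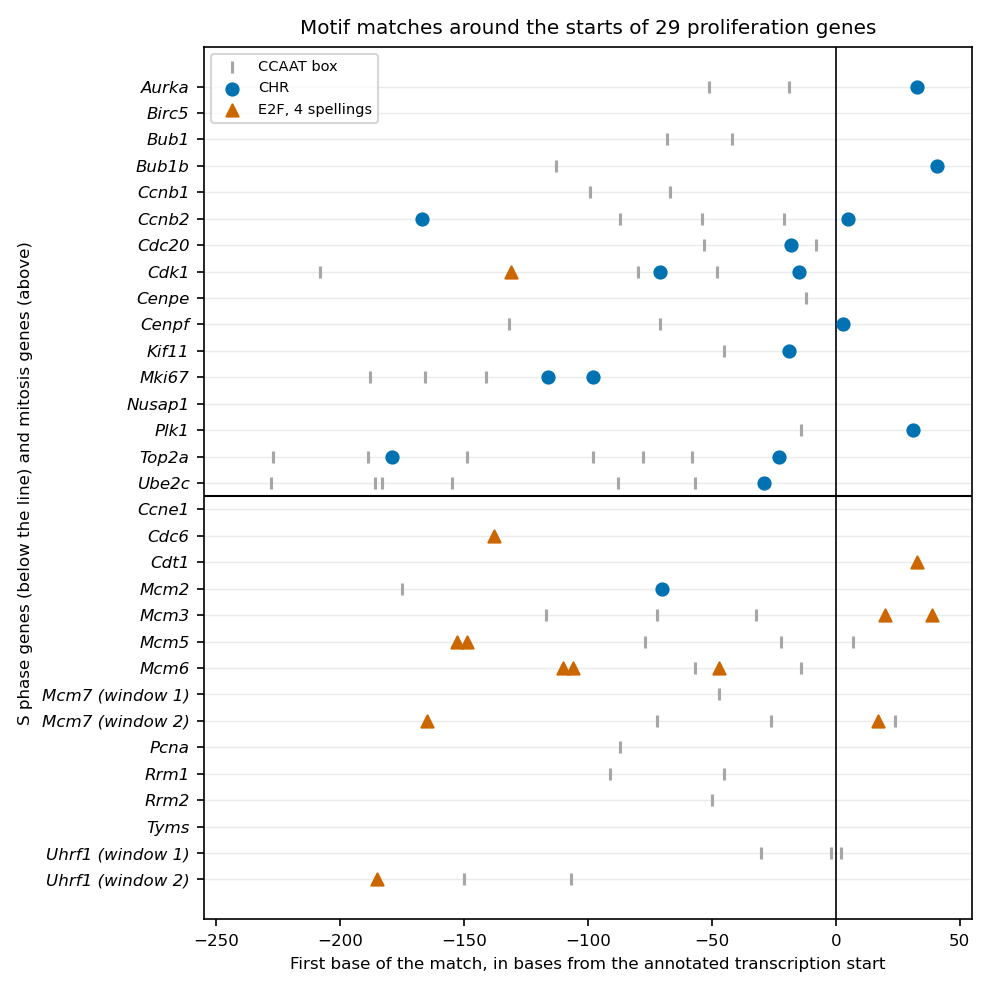
Motif matches in the windows of 29 proliferation genes, plotted by the distance of their first base from the annotated transcription start in bases, with 1 row per gene window. Blue circles (CHR) sit almost only on the mitosis rows, orange triangles (E2F spellings) almost only on the S phase rows, and grey ticks (CCAAT box) on both.

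The 36 genes ranged from 45.0 scaled RPKM for Top2a, the topoisomerase that untangles sister chromatids, down to 1.52 for the kinetochore protein gene Cenpf (means of 13 libraries, a unit per transcript length). The median was 10.2 for the S phase and 8.10 for the mitosis genes, beside 6.58 for all genes tested. High levels did not always come from coding transcripts. Of the Top2a signal 59.9% was assigned to a short processed transcript and 20.4% to coding ones, and of the Gins2 signal (a replicative helicase subunit) 89.0% to a retained intron. In Rrm1, the large subunit of ribonucleotide reductase, 65.9% was assigned to a transcript marked for nonsense-mediated decay. Coding transcripts held over 80% of the signal in 15 of the 36 genes, among them Mki67, Plk1, Ccnb2 and Mcm4 with 100%.

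The level of the whole set varied widely between libraries of the same group. Averaged over the 36 genes as log2(scaled RPKM + 0.5), it ranged from 2.45 in WT-WD female 1 to 3.74 in KO-WD male 2. In WT-ND it was 3.41 and 3.06 in the males and 2.70 and 3.04 in the females, and in KO-ND 3.38 and 3.64. In WT-WD it was 3.02 and 3.41 in the males and 2.45 and 2.89 in the females, and in KO-WD 3.20 and 3.74 in the males and 3.03 in the female. The 5 female libraries (2.45 to 3.04) overlapped the 8 male libraries (3.02 to 3.74) only at their edge. In KO-WD male 2, 35 of the 36 genes were above their own median over the libraries, in KO-ND 28 and 31, in WT-ND male 1 30 and in WT-WD male 2 28. In KO-WD male 1 and the KO-WD female 16 and 7 were, and in WT-WD female 1 only 1, beside 42.9% to 48.7% of all genes in a library.

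**Figure D2:**
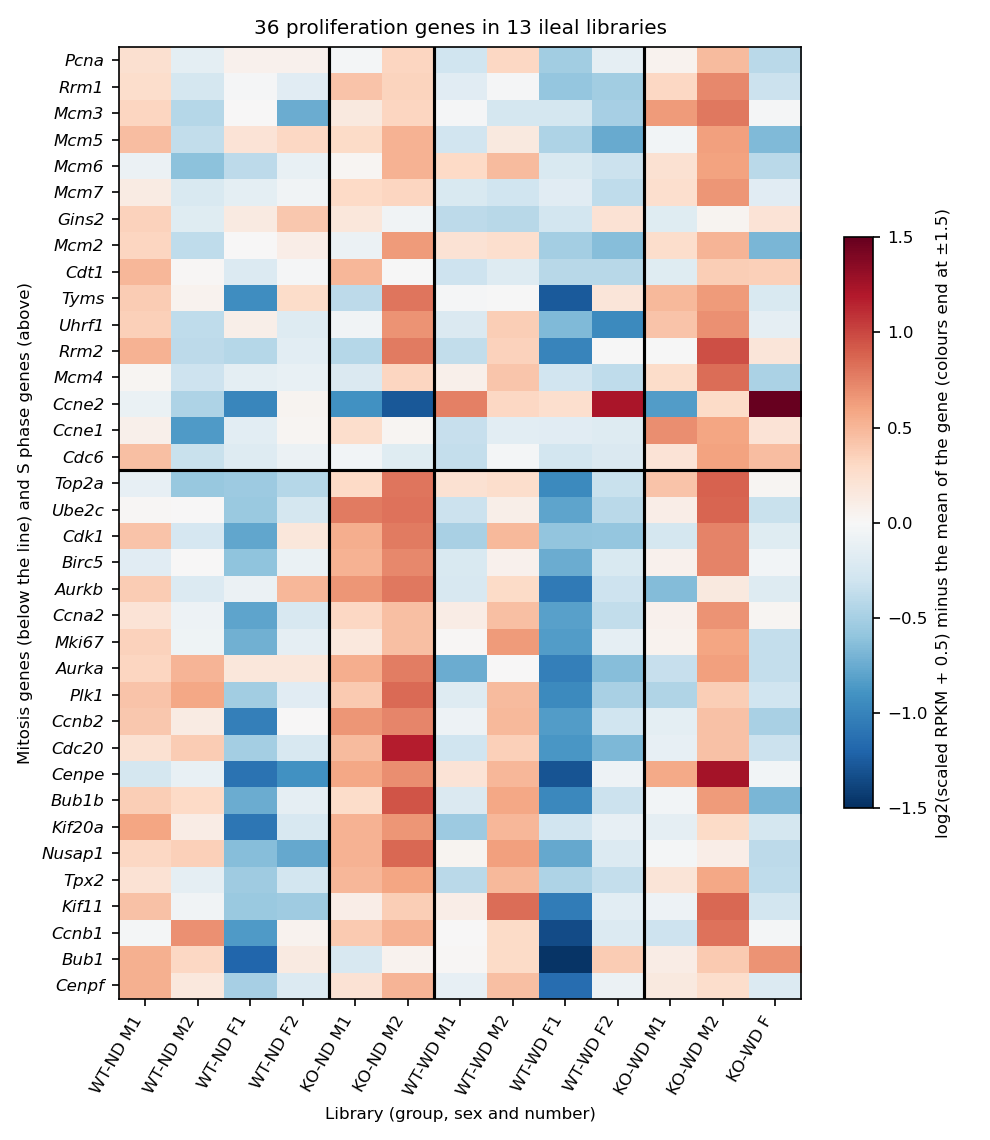
Heat map of the 36 genes (rows, S phase above the line and mitosis below it, each sorted by level) in the 13 libraries (columns, groups parted by lines). The colour is log2(scaled RPKM + 0.5) minus the mean of the gene, and WT-WD female 1 is blue in nearly every mitosis row while both KO-ND males, WT-WD male 2 and KO-WD male 2 are red in most of them.

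The S phase and mitosis lists did not vary by equal amounts. The S phase mean ran from 2.90 to 3.92 on the log2 scale and the mitosis mean from 2.10 to 3.69. Their difference, S phase minus mitosis, was -0.092 and -0.10 in KO-ND and 0.53, 0.32 and 0.50 in KO-WD, so these groups did not overlap. In WT-ND it was 0.33 and -0.11 in the males and 0.79 and 0.48 in the females, and in WT-WD 0.38, -0.0071, 0.81 and 0.36 in the same order, so the WT groups overlapped each other, and WT-ND male 2 was level with KO-ND. The median spread within groups (SD of log2 values) was 0.50 for a mitosis gene and 0.37 for an S phase gene, beside 0.40 for all genes tested.

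**Figure D3:**
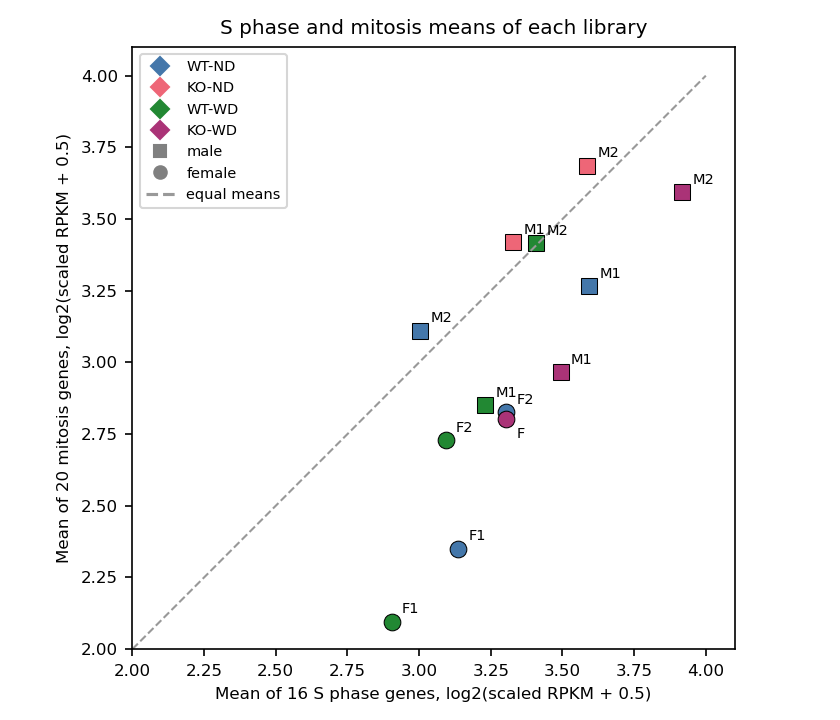
Mean of the 16 S phase genes (x) against the mean of the 20 mitosis genes (y) in each library, both as log2(scaled RPKM + 0.5), with colours for groups, squares for males and circles for females. Females sit low on the mitosis axis (2.10 to 2.83), and the KO-ND males lie above the line of equal means while all 3 KO-WD libraries lie below it.

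Whether loss of Tas1r3 alone moves these genes was asked in ND-fed mice, where mitosis genes were higher in KO-ND. Of the 20 mitosis genes 19 had a positive log2 fold change (median 0.70, 1.62-fold), and of the 16 S phase genes 13 (median 0.26, 1.2-fold), beside 51.3% of all genes and a median of 0.014. No gene of the 36 passed the test (limma, adjusted p under 0.01 and at least 2-fold), and 0% of all genes did. None had an adjusted p under 0.05, beside 0.00525% of all genes. At an unadjusted p under 0.05, 7 of the 36 were higher and 0 lower, all 7 of them mitosis genes, beside 2.11% and 2.62% of all genes. The KO-ND values lay above all 4 WT-ND values in 15 of the 36 genes (12 mitosis, 3 S phase) and below them in 0, beside 8.67% and 13.3% of all genes. KO-ND holds males only, so genotype is mixed with sex here. Among male libraries 33 of the 36 were positive, with medians of 0.37 for mitosis and 0.26 for S phase, and with sex as a covariate 28 were, with medians of 0.46 and 0.076. The S phase median was 0.0049 without KO-ND male 2, so that library carried it, and the 7 became 1 without KO-ND male 2 and 10 without WT-ND male 1.

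Cenpe, the kinesin that carries chromosomes to the spindle equator (ENSMUSG00000045328.11, chr3:135212537-135273611), had the largest difference of the mitosis genes. It was at 8.7 and 9.49 scaled RPKM in KO-ND and at 4.65 and 5.21 in the males and 2.37 and 2.78 in the females in WT-ND. The groups did not overlap (log2 fold change 1.23, SE 0.48, p = 0.0237, adjusted p = 0.895, exact permutation p = 0.133), and the difference was 0.80 in coding transcripts alone and 0.77 with sex as a covariate. Coding transcripts hold 27.9% of the Cenpe signal. The longest of them, Cenpe-201, overlapped between the genotypes, at 1.525 and 2.175 RPKM before scaling in KO-ND and 2.453 in WT-ND male 1. The short Cenpe-203 was at 0.4667 and 2.167 in KO-ND and 0.0105 or less in WT-ND. Top2a was at 52 and 73.6 in KO-ND and at 38.6 and 28.1 in the males and 28.8 and 31.1 in the females in WT-ND, again apart (log2 fold change 0.97, SE 0.34, p = 0.0144, adjusted p = 0.895, exact permutation p = 0.0667). In the coding transcript of Top2a alone the log2 difference was 0.50, adjusted p = 0.933 in limma. There the genotypes overlapped, with KO-ND male 1 at 9.08 RPKM before scaling and WT-ND male 1 at 13.2. Ube2c, the ubiquitin-conjugating enzyme of the anaphase-promoting complex, was at 39.3 and 40.1 against 22.9 and 22.7 in the males and 15.3 and 18.9 in the females (log2 fold change 0.99, SE 0.32, p = 0.00829, adjusted p = 0.895, exact permutation p = 0.0667). Birc5 (survivin, of the chromosomal passenger complex), Tpx2 (a spindle assembly factor) and the helicase subunit Mcm7 also reached the smallest exact p that 2 against 4 libraries allow, 0.0667.

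The cyclin and kinase pair that starts mitosis followed the same pattern with less separation. Cdk1 was at 31.4 and 36.9 in KO-ND and at 28.9 and 17.8 in the males and 12.2 and 24.1 in the females in WT-ND, apart by a small gap (log2 fold change 0.77, SE 0.40, p = 0.0743, adjusted p = 0.895, exact permutation p = 0.133). Ccnb1, its cyclin partner, was at 4.37 and 4.84 in KO-ND against 3.12 and 5.48 in the males and 1.56 and 3.33 in the females, where WT-ND male 2 was the highest of all (log2 fold change 0.50, SE 0.48, p = 0.324, adjusted p = 0.902, exact permutation p = 0.40). Mki67, the proliferation antigen, was at 11.9 and 14.7 in KO-ND and at 13.5 and 10.1 in the males and 6.2 and 9.54 in the females in WT-ND (log2 fold change 0.45, SE 0.39, p = 0.266, adjusted p = 0.895, exact permutation p = 0.267). Bub1, a spindle checkpoint kinase, was the one mitosis gene with a negative sign, at 1.48 and 1.91 against 2.87 and 2.39 in the males and 0.523 and 2.05 in the females (log2 fold change -0.040, SE 0.54, p = 0.941, adjusted p = 0.991, exact permutation p = 0.933). The sign of Bub1 turned under several alternatives and carries no direction.

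Among the S phase genes Mcm6 had the largest positive difference, at 15.3 and 21.7 in KO-ND and 14.1 and 9.65 in the males and 11.3 and 13.9 in the females in WT-ND (log2 fold change 0.58, SE 0.31, p = 0.0885, adjusted p = 0.895, exact permutation p = 0.133). It was 0.34 without KO-ND male 2. Pcna, the sliding clamp, was at 37.3 and 47.7 against 44.8 and 34.3 in the males and 39.6 and 39.8 in the females, with overlap (log2 fold change 0.095, SE 0.27, p = 0.732, adjusted p = 0.96, exact permutation p = 0.667). Mcm2 was at 9.31 and 15.8 against 12.5 and 7.5 in the males and 9.93 and 10.7 in the females. Rrm2, the small subunit of ribonucleotide reductase, was at 4.6 and 11.2 against 9.3 and 4.69 in the males and 4.57 and 5.6 in the females. In both, KO-ND male 1 lay within the range of WT-ND and KO-ND male 2 above it. Ccne2 (cyclin E2, ENSMUSG00000028212.16, chr4:11191351-11204779) was the lowest of the set by sign, at 1.93 and 1.38 against 3.74 and 2.81 in the males and 1.81 and 4.17 in the females (log2 fold change -0.71, SE 0.54, p = 0.214, adjusted p = 0.895, exact permutation p = 0.20). In its coding transcripts alone the log2 fold change was -0.015. Its partner in function Ccne1 (cyclin E1) was at 4.63 and 3.85 against 4.0 and 1.88 in the males and 3.33 and 3.87 in the females (log2 fold change 0.37, SE 0.27, p = 0.196, adjusted p = 0.895, exact permutation p = 0.467).

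Other mitosis and S phase genes had the same signs, and cell cycle regulators were split. Of 42 other mitosis genes 39 were positive (median 0.59), of 30 other S phase genes 25 (median 0.35) and of 33 cell cycle regulators 18 (median 0.015), and none of the 3 lists held a gene past the test. Cdca3, which promotes entry into mitosis, was at 32.9 and 40.0 in KO-ND and 22 and 21 in the males and 13.9 and 16.4 in the females in WT-ND (log2 fold change 0.99, SE 0.26, adjusted p = 0.895 in limma). Ncapd2, a condensin subunit, was at 69 and 72.4 in KO-ND against 52.7 and 46.1 in the males and 31.4 and 36.8 in the females in WT-ND (log2 fold change 0.78, SE 0.25, adjusted p = 0.895 in limma). The kinesin gene Kif20b (log2 fold change 1.30, adjusted p = 0.895 in limma) and Incenp (0.85, adjusted p = 0.895 in limma), the scaffold that holds Aurkb and Birc5, were also higher in both KO-ND libraries than in any WT-ND library.

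Markers of other ileal cells differed in the same comparison, and their part in the result was not tested. All 9 Paneth cell markers had positive and all 15 villus enterocyte markers negative log2 fold changes (medians 1.25 and -1.06). The summed enterocyte level was 7400 to 7925 scaled RPKM in KO-ND and 11517 to 17997 in WT-ND, which did not overlap, and the summed Paneth level 36896 to 79284 and 13653 to 41727. Of 13 crypt stem cell markers 11 were positive (median 0.21), and their sum was 197 to 236 in KO-ND, within the 149 to 282 of WT-ND. All 8 smooth muscle markers were positive (median 0.64), with sums of 2927 to 5326 and 1648 to 4784.

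**Figure D4:**
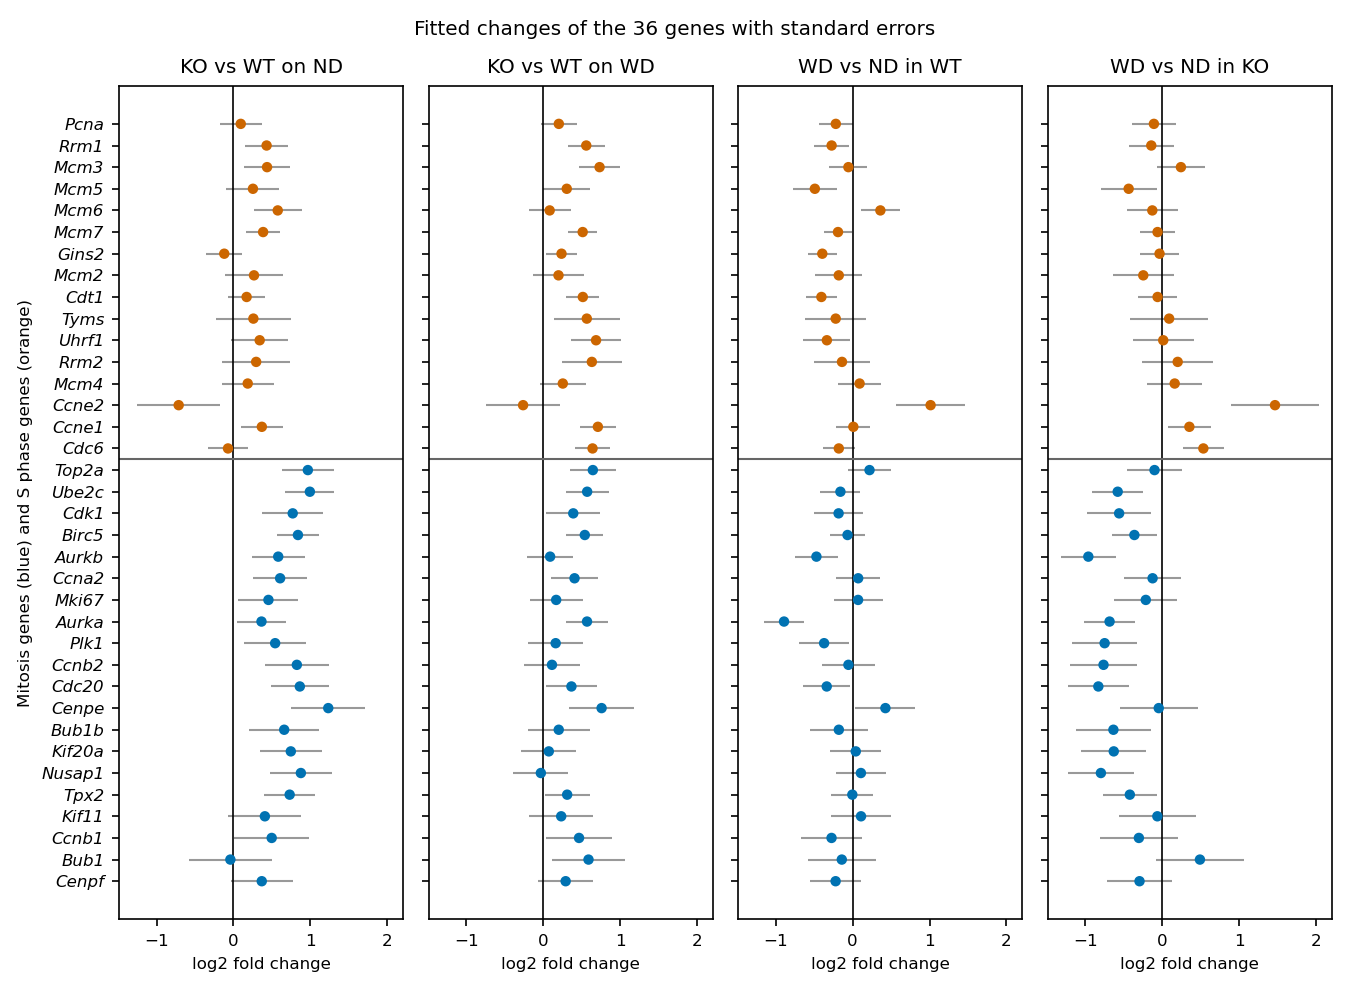
Fitted log2 fold changes (points, ± SE as bars) of the 16 S phase genes (orange) and 20 mitosis genes (blue) in 4 comparisons, with 1 panel each. Points lie right of 0 for 32 of 36 genes between genotypes on ND and 34 of 36 on WD, and left of 0 for 25 of 36 with diet in WT and 27 of 36 in KO.

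The same question was asked under WD, where the median difference was larger for the S phase genes. Of the 16 S phase genes 15 had a positive log2 fold change (median 0.52, 1.43-fold) and of the 20 mitosis genes 19 (median 0.34, 1.27-fold), beside 47.7% of all genes and a median of -0.015. None of the 36 passed the test, and 0.0105% of all genes did. None had an adjusted p under 0.05, beside 0.0263% of all genes. At an unadjusted p under 0.05, 7 were higher (6 S phase, 1 mitosis) and 0 lower, beside 1.64% and 1.01% of all genes. In coding transcripts alone 4 were higher (2 S phase, 2 mitosis) and 0 lower, beside 2.48% of all genes in either direction. Complete separation, with every KO-WD value above every WT-WD value, was found in 4 of the 36, all S phase genes (Mcm7, Cdt1, Cdc6 and Ccne1), beside 1.55% of all genes. Separation in the other direction was found in 0, beside 1.29% of all genes. For Mcm7 the gap was narrow, with the KO-WD female at 10.442 and WT-WD female 1 at 10.434 scaled RPKM. In their main coding transcripts Ccne1, Cdc6 and Mcm7 overlapped between the genotypes. There the KO-WD female was at 2.10, 0.586 and 3.20 RPKM before scaling, and WT-WD male 2 at 2.99, 1.56 and 6.83. The result leaned on KO-WD male 2. Without it 22 of the 36 were positive and the median of the 36 was 0.17 in place of 0.38, while without WT-WD female 1 it was 0.23 and without WT-WD male 2 it was 0.57. The 7 became 1 without KO-WD male 2 and 12 without either WT-WD male 2 or the KO-WD female. Within the sexes, the medians of KO-WD minus WT-WD were 0.41 (S phase) and 0.10 (mitosis) among males. They were 0.27 and 0.41 in the averaged KO-WD female library against 2 WT-WD females.

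Ccne1, which drives cells from G1 into S phase (ENSMUSG00000002068.16, chr7:38097984-38107534), was at 6.42 and 5.94 scaled RPKM in the males and 4.42 in the female in KO-WD and at 2.86 and 3.32 in the males and 3.31 and 3.25 in the females in WT-WD. The WT-WD values lay close together and below all of KO-WD (log2 fold change 0.71, SE 0.24, p = 0.0107, adjusted p = 1.0, exact permutation p = 0.0286). The smallest exact p that 3 against 4 libraries allow is 0.0286. Mcm3 had the largest difference of the S phase genes, at 28.4 and 31.6 in the males and 17.7 in the female against 17.7 and 14.9 in the males and 14.9 and 12.6 in the females, where the KO-WD female was just below WT-WD male 1 (log2 fold change 0.74, SE 0.27, p = 0.0165, adjusted p = 1.0, exact permutation p = 0.0571). In coding transcripts alone, which hold 18.4% of the Mcm3 signal, the log2 difference was 0.43, adjusted p = 1.0 in limma. Cdc6, which loads the helicase at origins, was separated too (log2 fold change 0.64, adjusted p = 1.0 in limma), as was its partner Cdt1 (0.52, adjusted p = 1.0 in limma).

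Other S phase genes overlapped. Mcm6 was at 17.7 and 23.1 in the males and 11.2 in the female against 18.7 and 21 in the males and 12.8 and 11.9 in the females (log2 fold change 0.086, SE 0.28, p = 0.76, adjusted p = 1.0, exact permutation p = 0.857). Pcna was at 39.3 and 53 in the males and 28.6 in the female against 30.8 and 47.1 in the males and 26.2 and 34.5 in the females (log2 fold change 0.21, SE 0.24, p = 0.406, adjusted p = 1.0, exact permutation p = 0.514). In both, KO-WD male 2 was the highest library, while the KO-WD female was the lowest for Mcm6 and among the WT-WD females for Pcna. Mcm2 was at 12 and 14.4 in the males and 5.98 in the female against 11.6 and 11.9 in the males and 6.82 and 6.2 in the females, and Rrm2 was at 6.29 and 12.9 in the males and 7.22 in the female against 4.81 and 8.16 in the males and 2.93 and 6.29 in the females, with log2 fold changes of 0.20 and 0.63 and overlap in each. Ccne2 had the lowest value, at 2.05 and 5.05 in the males and 14.1 in the female against 7.2 and 5.16 in the males and 4.93 and 10.1 in the females (log2 fold change -0.26, SE 0.48, p = 0.598, adjusted p = 1.0, exact permutation p = 0.743). Its sign rests on 1 library, since without KO-WD male 1 the log2 fold change was 0.37.

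The mitosis genes were higher by a smaller margin. Cenpe was again first, at 8.65 and 14.1 in the males and 5.49 in the female in KO-WD and 6.59 and 8.18 in the males and 2.0 and 5.36 in the females in WT-WD (log2 fold change 0.76, SE 0.42, p = 0.0957, adjusted p = 1.0, exact permutation p = 0.257), but its coding transcripts differed by 0.079, and without WT-WD female 1 the difference was 0.40. Top2a was at 56.9 and 78.3 in the males and 43.1 in the female against 49.5 and 50.8 in the males and 21.4 and 33.4 in the females (log2 fold change 0.65, SE 0.30, p = 0.0513, adjusted p = 1.0, exact permutation p = 0.20). Birc5 was the mitosis gene with an unadjusted p under 0.05 (log2 fold change 0.54, adjusted p = 1.0 in limma). Cdk1 was at 17.8 and 36 in the males and 18.8 in the female against 15.1 and 30.0 in the males and 14 and 14.1 in the females, and Ccnb1 was at 2.49 and 6.0 in the males and 3.13 in the female against 3.24 and 4.01 in the males and 0.968 and 2.72 in the females. Mki67 was at 10.9 and 16.2 in the males and 8.11 in the female against 10.7 and 16.8 in the males and 5.71 and 9.57 in the females, with a log2 fold change of 0.17 ± 0.34 (SE). Nusap1, a spindle microtubule binder, had the lowest value, at 4.3 and 4.77 in the males and 3.26 in the female against 4.57 and 7.05 in the males and 2.39 and 3.76 in the females (log2 fold change -0.029, SE 0.36, p = 0.937, adjusted p = 1.0, exact permutation p = 0.971). For Cdk1, Ccnb1, Mki67 and Nusap1, WT-WD male 2 was above KO-WD male 1.

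Outside the set, 23 of 30 other S phase genes (median 0.22) and 32 of 42 other mitosis genes (median 0.19) were positive, and no gene of these lists or of the 33 regulators passed the test. The regulators split, with 17 positive. Rbl2 (p130), the pocket protein that holds E2F targets silent in resting cells, was at 5.08 and 5.39 in the males and 7.75 in the female in KO-WD and 8.43 and 7.75 in the males and 8.0 and 10.1 in the females in WT-WD (log2 fold change -0.48, SE 0.18, adjusted p = 1.0 in limma). The KO-WD males were below every WT-WD library, but the KO-WD female (7.749) was level with WT-WD male 2 (7.754). E2f4, the E2F that pairs with Rbl2, was at 38.8 and 46.7 in the males and 38 in the female against 33.2 and 32.1 in the males and 31.7 and 34.1 in the females, above WT-WD in every library (log2 fold change 0.32, SE 0.14, adjusted p = 1.0 in limma). Ccng1 (cyclin G1, a p53 target) was lower (-0.36, adjusted p = 1.0 in limma) and Tk1 (thymidine kinase) higher (0.33, adjusted p = 1.0 in limma), both without overlap. As on ND, the 9 Paneth markers were all positive (median 1.38, sums of 41606 to 59867 in KO-WD against 13285 to 26820) and the 15 enterocyte markers all negative (median -0.81), with enterocyte sums of 2057 to 17751 and 7413 to 26740. Their part in the result was not tested.

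Diet was then compared within WT mice. Of the 36 genes 25 had a negative log2 fold change from ND to WD (median -0.17, beside 0.019 for all genes, of which 51.8% were positive), 12 of 16 in S phase (median -0.19) and 13 of 20 in mitosis (median -0.10). In coding transcripts alone 9 of 16 S phase genes were negative (median -0.0040) and 16 of 20 mitosis genes (median -0.13). None of the 36 passed the test, and 0.00525% of all genes did. None had an adjusted p under 0.05, beside 0.116% of all genes. At an unadjusted p under 0.05, 1 was higher (Ccne2) and 1 lower (Aurka), beside 6.9% and 8.63% of all genes. The same 2 genes were the ones without overlap between the diets, beside 4.2% of all genes higher and 6.3% lower. Without WT-WD female 1 the median of the 36 was 0.062, so its sign rests on that library, and without WT-WD male 2 it was -0.31. The summed RPKM of a library was 817011 to 819916 with ND and 542371 to 672933 with WD. Scaling removes a constant factor per library and leaves any part that varies between transcripts. Before scaling, the retained intron Tyms-202 was at 2.01 to 5.48 RPKM in the ND libraries of both genotypes and 1.29 or less in the WD libraries. Tyms-205 overlapped between the diets, and the cause was not tested. Without scaling the median of the 36 was -0.56, beside -0.38 for all genes.

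Aurka (Aurora A, ENSMUSG00000027496.15, chr2:172356190-172370535), the kinase of centrosome maturation, was the clearest single gene. It was at 5.04 and 8.8 scaled RPKM in the males and 4.08 and 5.49 in the females in WT-WD and at 11.1 and 12.7 in the males and 9.97 and 9.96 in the females in WT-ND. Every WT-WD value lay below every WT-ND value (log2 fold change -0.89, SE 0.26, p = 0.00442, adjusted p = 0.148, exact permutation p = 0.0286), and the exact p is the smallest that 4 against 4 libraries allow. Its log2 fold change stayed between -1.10 and -0.76 when each library was left out in turn, but it was -0.57 in coding transcripts alone, which hold 58.7% of the signal. The retained-intron transcripts were apart between the diets, but the coding Aurka-201 and Aurka-202 were not. In each of these, before scaling, WT-WD male 2 was at 2.37 RPKM and WT-ND at 0.759 to 2.10. The coding Aurka-203 was at 2.60 to 5.26 in WT-ND and 0.573 to 2.47 in WT-WD. Ccne2 differed the other way, at 7.2 and 5.16 in the males and 4.93 and 10.1 in the females in WT-WD and 3.74 and 2.81 in the males and 1.81 and 4.17 in the females in WT-ND, also without overlap (log2 fold change 1.01, SE 0.44, p = 0.0406, adjusted p = 0.298, exact permutation p = 0.0286). Its processed transcript holds 57.2% of the signal, and in its coding transcripts alone WT-WD was higher by 1.01 on the log2 scale (limma, adjusted p = 0.186). Mcm5, another helicase subunit, was the lowest of the S phase genes, at 12.5 and 17 in the males and 11 and 8.87 in the females against 21.3 and 11.8 in the males and 17.7 and 19 in the females (log2 fold change -0.49, SE 0.28, p = 0.106, adjusted p = 0.42, exact permutation p = 0.114), and among males alone the difference was -0.11. Cenpe was the highest of the mitosis genes (log2 fold change 0.43, adjusted p = 0.626 in limma), which its coding transcripts did not share (-0.0092), and it ran from 0.20 to 0.80 when WT-WD male 2 or WT-WD female 1 was left out.

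Mki67, Top2a, Pcna, Cdk1, Ccnb1, Mcm2, Mcm6, Rrm2 and Ccne1 overlapped between the diets in WT. Log2 fold changes were 0.070 ± 0.32 (SE) for Mki67, 0.22 ± 0.28 for Top2a and -0.22 ± 0.22 for Pcna. For Cdk1, Ccnb1, Mcm2, Mcm6, Rrm2 and Ccne1 they lay between -0.27 and 0.36. Of 30 other S phase genes 20 were positive (median 0.22), a median of the opposite sign to that of the 16, of 42 other mitosis genes 21 were (median -0.0046), and of 33 regulators 12 were (median -0.091). None of them passed the test. Ccng1 was at 15.9 and 16.6 in the males and 15.6 and 20.8 in the females in WT-WD and 9.7 and 12 in the males and 9.28 and 9.22 in the females in WT-ND, all higher (log2 fold change 0.75, SE 0.16, adjusted p = 0.0852 in limma). Kif22, a chromosome-arm kinesin, was at 7.47 and 11.3 in the males and 8.7 and 7.6 in the females against 16.9 and 14.7 in the males and 11.8 and 13.1 in the females, all lower (log2 fold change -0.66, SE 0.18, adjusted p = 0.127 in limma). Fzr1, an activator of the anaphase-promoting complex (-0.62, adjusted p = 0.17 in limma), and Chaf1a, a chromatin assembly factor (-0.49, adjusted p = 0.225 in limma), were also lower without overlap. Crypt stem cell markers gave 8 of 13 positive (median 0.18), and T cell markers 8 of 9 (median 0.37, sums of 18.6 to 44.9 against 9.44 to 29.4). Adipocyte markers were negative in 6 of 6 (median -1.48, sums of 28.6 to 127 against 26 to 180), goblet cell markers in 5 of 7 (median -0.63), and smooth muscle markers positive in 7 of 8 (median 0.37). Their part in the result was not tested.

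In KO mice the diet comparison separated the S phase from the mitosis genes. Of the 20 mitosis genes 19 had a negative log2 fold change (median -0.49, 0.711-fold), and of the 16 S phase genes 8 (median -0.011), beside a median of 0.0037 for all genes, of which 50.4% were positive. None of the 36 passed the test, and 0% of all genes did. None had an adjusted p under 0.05, beside 0.00525% of all genes. At an unadjusted p under 0.05, 1 was higher (Ccne2) and 1 lower (Aurkb), beside 2.75% and 2.75% of all genes. The groups did not overlap in 6 genes that were lower, all of mitosis, and in 3 that were higher, beside 10.1% and 10.8% of all genes. KO-ND has no female, so diet is mixed with sex here as well. Among males 15 of 20 mitosis genes were negative (median -0.27) and 13 of 16 S phase genes positive (median 0.19). Without KO-WD male 2 the mitosis median was -0.72, and without the KO-WD female -0.26.

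Aurkb (Aurora B, ENSMUSG00000020897.12, chr11:69045647-69051664), the kinase of the chromosomal passenger complex, was at 8.0 and 14.3 scaled RPKM in the males and 11.2 in the female in KO-WD and at 20.7 and 22.6 in KO-ND. All KO-WD values were lower (log2 fold change -0.96, SE 0.36, p = 0.0198, adjusted p = 0.874, exact permutation p = 0.10), and 0.1 is the smallest exact p that 3 against 2 libraries allow. In coding transcripts alone, which hold 45.6% of the Aurkb signal, the log2 fold change was -0.44. Summed over these transcripts the groups overlapped, with KO-WD male 2 above KO-ND male 1. Before scaling these 2 libraries were at 5.89 and 6.26 RPKM in Aurkb-201 and at 1.75 and 1.32 in Aurkb-202. In WT the same gene was at 10.9 and 15.8 in the males and 5.93 and 10.3 in the females with WD and 16.9 and 11.1 in the males and 12.1 and 18.3 in the females with ND, which overlapped. Ccne2 was at 2.05 and 5.05 in the males and 14.1 in the female in KO-WD and 1.93 and 1.38 in KO-ND (log2 fold change 1.47, SE 0.57, p = 0.0244, adjusted p = 0.886, exact permutation p = 0.20). The lowest KO-WD library lay just above the highest KO-ND library, and the female was far above both males. Without the female the log2 fold change was 0.82. Bub1 was the highest of the mitosis genes, at 2.03 and 2.56 in the males and 3.23 in the female against 1.48 and 1.91 (log2 fold change 0.49), but in coding transcripts alone it was -0.089. Mcm5 was the lowest of the S phase genes, at 14.8 and 23.6 in the males and 9.51 in the female against 18.8 and 22.2 (log2 fold change -0.44, SE 0.36, p = 0.252, adjusted p = 0.985, exact permutation p = 0.50). The Mcm5 value was -0.12 without the KO-WD female and -0.76 without KO-WD male 2.

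Cdc20 (-0.83), which activates the anaphase-promoting complex, Nusap1 (-0.80), Ccnb2 (-0.76), Plk1 (-0.75) and Kif20a (-0.63) were the other mitosis genes with every KO-WD value below KO-ND, and Cdc6 (0.53) stood above it. Top2a (-0.10) and Mki67 (-0.21) overlapped, as did Pcna, Mcm2, Mcm6, Rrm2 and Ccne1. Of 42 other mitosis genes 32 were negative (median -0.41), of 30 other S phase genes 14 (median 0.084), and none passed the test. Ncapd2 was at 36.7 and 46 in the males and 29.3 in the female in KO-WD against 69 and 72.4 in KO-ND (log2 fold change -0.93, SE 0.27, adjusted p = 0.781 in limma). Nek2, a centrosome kinase, was at 6.17 and 9.97 in the males and 5.76 in the female against 17.1 and 14.9 (log2 fold change -1.12, SE 0.35, adjusted p = 0.844 in limma). Kif22 (-0.69, adjusted p = 0.858 in limma) was lower, and Slbp, which binds the stem-loop of histone mRNA, higher (0.82, adjusted p = 0.858 in limma), both without overlap. B cell markers were higher in KO-WD (9 of 9 positive, median 1.42, sums of 15.7 to 60.2 against 13.9 to 16.2), and their part in the result was not tested.

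The difference between the diet responses of the genotypes was tested as an interaction. Of the 16 S phase genes 14 had a positive interaction (median 0.30), and of the 20 mitosis genes 18 a negative one (median -0.38), beside -0.0047 for all genes, of which 49.5% were positive. No gene of the 36 had an unadjusted p under 0.05, against 1.43% of all genes, and 0% of all genes passed the test or had an adjusted p under 0.05. So the opposite signs of the lists are a description. Of the 30 other S phase genes 22 were negative (median -0.12), a median of the opposite sign to that of the 16, while 38 of 42 other mitosis genes were negative (median -0.35). With sex as a covariate the medians were 0.28 for S phase and -0.17 for mitosis. The mitosis median was -0.14 without KO-ND male 2 and -0.64 without KO-WD male 2. This comparison uses all 4 groups, and the comparisons above share libraries with each other (WT-ND enters both the genotype comparison on ND and the diet comparison in WT), so their signs are not separate evidence.

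Females were compared with males, since the labels give the sex of every mouse. The comparison was added after the values had been seen. In the fit with group and sex, all 20 mitosis genes and 13 of 16 S phase genes were lower in females (medians -0.64 and -0.38, 0.64- and 0.77-fold), beside a median of -0.012 for all genes, of which 48.7% were positive. None of the 36 passed the test (0.042% of all genes did), and none had an adjusted p under 0.05 (0.457% did). At an unadjusted p under 0.05, 19 were lower (14 mitosis, 5 S phase) and 0 higher, beside 9.31% and 9.98% of all genes. The lower count was 12 without WT-WD male 2. The sign of the median of the mitosis genes was the same within each group that kept a female library. KO-ND kept none, and KO-WD kept 1. Of the 20 mitosis genes, 19 were lower in females than in males in WT-ND, 20 in WT-WD and 18 in KO-WD, and of the 16 S phase genes 9, 13 and 12, beside 52.8%, 49.98% and 51.1% of all genes.

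Nusap1 had the smallest adjusted p. The lowest, median and highest of the 8 males were 4.3, 5.7 and 8.4 scaled RPKM, and the 5 females ran from 2.38 to 3.76, below every male (log2 fold change -0.80, SE 0.18, adjusted p = 0.0627 in limma). Kif11, the motor that pushes spindle poles apart, was at 3.42, 4.4 and 7.04 in males and 1.5 to 3.21 in females, also apart (-0.85, adjusted p = 0.101 in limma). Mki67 was at 10.1, 12.7 and 16.8 in males and 5.71 to 9.57 in females, the third gene without overlap (-0.69, adjusted p = 0.103 in limma). These 3 of 36 were lower without overlap, beside 1.22% of all genes, and 0 were higher without overlap, beside 0.473%. Cenpe had the largest log2 fold change (-0.93, SE 0.22), with males at 4.65, 8.42 and 14.1 and females at 2.0 to 5.49. Bub1b, a checkpoint kinase, and Ccnb2, a mitotic cyclin, were at -0.84 and -0.74. Of the genes that were lower in females, Cdc6 had the smallest log2 fold change, at -0.082 ± 0.18 (SE), with Cdt1 at -0.14 ± 0.17 and Mcm7 at -0.18 ± 0.15, and Ccne1 (0.040), Gins2 (0.28) and Ccne2 (0.49) were the 3 with a positive sign.

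**Figure D5:**
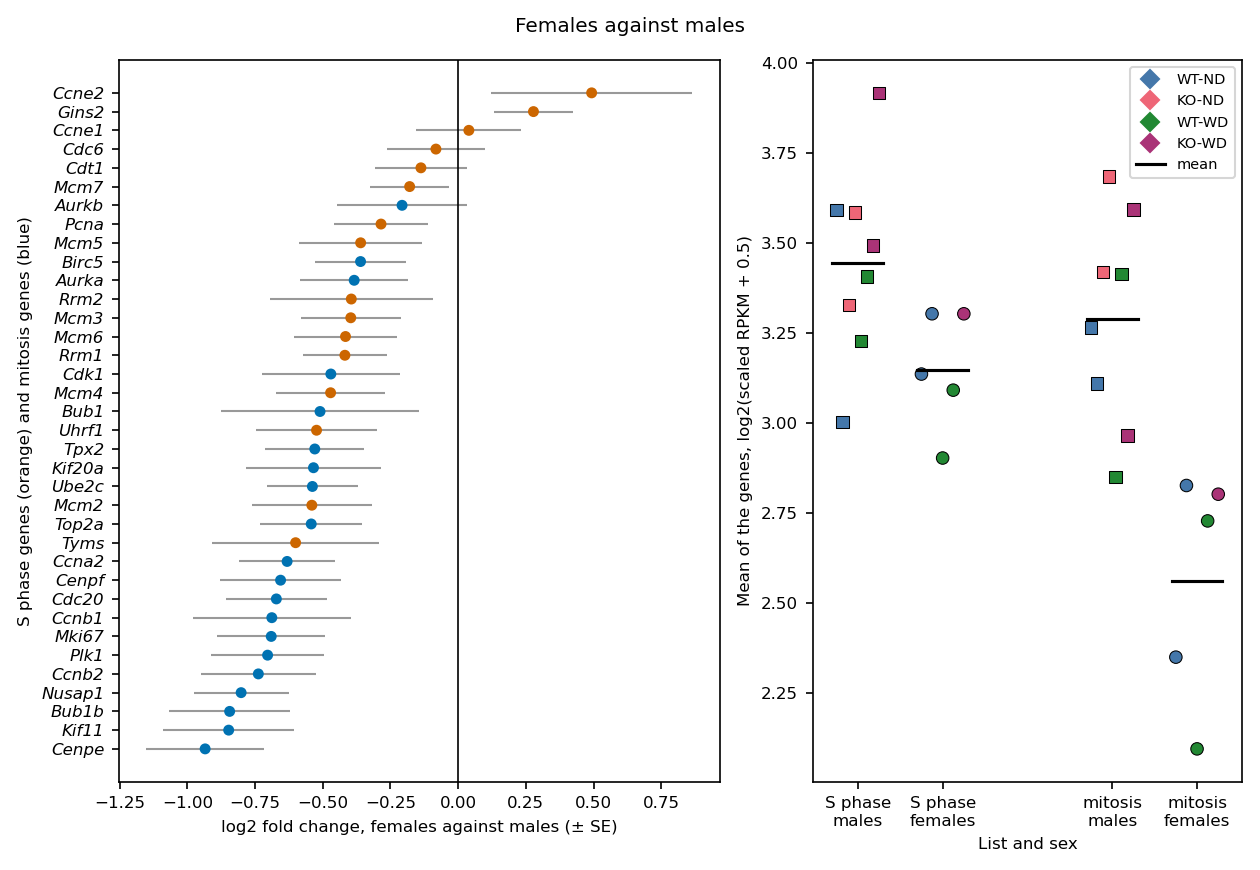
Left, fitted log2 fold changes (± SE) of females against males for the 36 genes, S phase in orange and mitosis in blue. Right, mean of each list per library as log2(scaled RPKM + 0.5), with bars at the mean of 8 males and 5 females and colours for groups. All blue points lie left of 0, and the mitosis means of the females (2.10 to 2.83) lie below those of the males (2.85 to 3.69).

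The related lists had the same signs in females. Of 42 other mitosis genes 40 were lower (median -0.48) and of 30 other S phase genes 24 (median -0.36), with 20 and 12 at an unadjusted p under 0.05. Crypt markers went with them. All 13 stem cell markers were lower in females (median -0.56, 2 with an adjusted p under 0.05), with sums of 149 to 201 scaled RPKM in females and 197 to 385 in males, and all 9 Paneth markers were lower (median -0.71). All 15 villus enterocyte markers were higher (median 0.79), with sums of 10355 to 26740 in females and 2057 to 16212 in males. Markers from outside the epithelium were higher as well, 8 of 9 for T cells (median 1.04), 9 of 9 for B cells (0.89) and 6 of 6 for adipocytes (1.42), while smooth muscle was mixed (2 of 8 positive). The part of cell composition in the sex difference was not tested. The marker Olfm4 ranged over 54.5 to 117 in females and 76.0 to 247 in males, and Lgr5 over 1.93 to 3.21 and 2.80 to 6.76.

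Across the 13 libraries most of the set varied together, as a description that genotype, diet, sex and depth all enter. Pearson's r of a gene with the mean of the other 35 was at least 0.5 for 33 of the 36, highest for Ccna2 (0.95), Mki67 (0.94) and Bub1b (0.92). The exceptions were Ccne1 (0.41), Gins2 (0.045) and Ccne2 (-0.31). The genes outside the set most like its mean, among those with a mean RPKM of at least 2, were Hmgb2 (r = 0.96), a DNA-bending chromatin protein, Spdl1 (0.95), Lmnb1 (0.94), Ska3 (0.94), Ppa1 (0.94), Prc1 (0.93), Melk (0.93) and Gm10259 (0.93). Spdl1 and Ska3 encode kinetochore proteins, Lmnb1 a nuclear lamin, Ppa1 a pyrophosphatase and Prc1 the bundler of the central spindle.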

How the data were processed

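Polyadenylated, ribosome-depleted RNA of whole terminal ileum was sequenced on the Ion Proton. The authors aligned the reads and deposited RPKM per transcript (Partek, mm10 per the labels), and their own comparisons were not used. RPKM of the transcripts of a gene were summed, scaled between libraries by a trimmed mean, and tested as log2(RPKM + 0.5) with limma 3.58.1 in R 4.3.3, in 1 fit of the 4 groups with Benjamini-Hochberg adjustment over 19042 genes. Genes were kept if 2 or more of the libraries reached an RPKM of 1. A call needed an adjusted p under 0.01 and a change of at least 2-fold. Exact permutation tests were two-sided.

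Groups, sex and replicate numbers came from the labels. The labels name separate mice, and p-values cover only the spread between these libraries. The members and lists were chosen with earlier results of these data known. Values in every library are given for 9 fixed genes and for the genes with the largest positive and negative change of each list in each comparison, and other cell cycle genes by their p among those without overlap. Replicate numbers were not taken to pair libraries, since r of same-numbered libraries, on deviations from the group means, ran from -0.15 to 0.57. For the same sex and other numbers r ran from -0.29 to 0.28. However, the WD males of the same number correlated at 0.57 and 0.42, and the WT females of the same number at 0.47 and 0.30. Alternatives varied the scaling, pseudocount, filter, covariates, transcripts and libraries. The fits were tested on simulated data. Sequences are from RefSeq, and 7 genes had no matched window.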

Additional observations from a re-analysis of the deposited data

Results flagged for a closer look

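In 80 groups of 4 libraries tested, 4 had 1 library that stood apart, by a gap to its neighbour, as a share of the range of the group, beyond Dixon's critical value. Chance gives about 1 in 20 such groups. All 4 were in WT-WD. Male 2 was the highest library for Cdk1 (gap of 0.903 of the range) and for Tpx2 (0.884). Female 1 was the lowest for Tyms, which makes thymidylate (0.864), and male 1 was the lowest for Ccne1 (0.847).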

How the results depend on the processing

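No alternative gave a gene of the 36 past the test, nor did an adjusted p under 0.05. At an unadjusted p under 0.05 the counts were 7 (genotype on ND), 7 (genotype on WD), 2 (diet in WT), 2 (diet in KO) and 0 (interaction). Of the main results, 647 values under alternatives were within the spread or on the same side and 12 were not. Without scaling the median of the 36 was -0.56 for diet in WT and -0.53 in KO, and the S phase median -0.62 and -0.40, beside -0.38 and -0.35 for all genes. With libraries left out in turn, the S phase median ran from 0.0049 to 0.40 for genotype on ND and from 0.051 to 0.39 for the interaction, where it was 0.038 in coding transcripts, and the mitosis median of the interaction from -0.64 to -0.14. The count of genes lower in females ran from 12 to 21.

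Signs were followed for the genes with the largest positive or negative change of each list, and 4 of these genes turned. Over all 36, the count of positive genes under alternatives ran from 19 to 34 for genotype on ND and from 22 to 35 on WD. For diet it ran from 2 to 19 in WT and from 3 to 21 in KO. There the median of all genes ran from -0.38 to 0.063 and from -0.35 to 0.038. For genotype on ND, Bub1 was at 0.0095 with upper quartile scaling, 0.0054 with a pseudocount of 0.1, 0.42 by its highest transcript and 0.42 in coding transcripts, and -0.42 to 0.17 with libraries left out. For genotype on WD, Ccne2 was at 0.084 with all 16 columns and -0.91 to 0.37 with libraries left out, and Nusap1 at 0.0098 with KO-WD female 1 alone and -0.24 to 0.22. Cenpe was at -0.0092 in coding transcripts for diet in WT, and Bub1 at -0.064 by its highest transcript and -0.089 in coding transcripts for diet in KO. The cause was not tested. With the replicate number as a block, which shares only a number, the medians of the 36 were 0.21, 0.36, -0.17, 0.0077 and 0.17 in the 4 comparisons and the interaction. With 2 to 4 libraries a group, and KO-ND male only, genotype on ND and diet in KO cannot be fully told apart from sex.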
